A study of Mus musculus with 9 samples.

Results

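The interleukin-6 family genes and their STAT3 signalling partners were followed by symbol through count tables of mouse back skin, and all 10 members were found, out of 23282 entries per table. They are the cytokine genes Il6, Il11, Lif and Osm, the receptor genes Il6ra, Il11ra1, Osmr and Il6st, the transcription factor gene Stat3 and the feedback inhibitor gene Socs3. The skin came from wild-type C57BL/6 (B6) mice and was taken at 24 h. The groups were tape-stripped skin with NGO cream (a cream holding graphene oxide of nanometre size, a sheet-like form of carbon; 50 µg in 100 µL per mouse), tape-stripped skin with control cream, and unstripped skin labelled with control cream, at 3 libraries each. Tape stripping peels off the outer epidermis. The protocol puts cream on stripped skin only, so whether the unstripped skin received any is not clear. Replicates are not described as separate animals, and p-values here reflect only library-to-library spread, which may be technical. The series title names acute skin inflammation and the NGO cream as the subject.

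Cytokines of the interleukin-6 family signal through gp130, the shared receptor chain encoded by Il6st. Interleukin-6 and interleukin-11 first bind their own chains (Il6ra, Il11ra1), while oncostatin M (Osm) in mice uses Osmr with gp130, and leukaemia inhibitory factor (Lif) uses the Lifr chain with gp130. The bound receptors activate JAK kinases, which phosphorylate STAT3. STAT3 then switches on target genes, among them Socs3, whose product shuts gp130 signalling down. In skin the pathway is known for its part in keratinocyte migration, wound closure and inflammation.

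A promoter window each of Socs3 and Il11 is shown because these genes rose after stripping. Each was picked because it holds a match to a motif that was searched for. Il11 has another window (chr7:4782808-4783107, minus strand), which held no match and is not shown. That other window lies at the upstream end of the annotated Il11 span, and the window shown lies inside the span. The windows come from RefSeq (build GRCm38.p6, the same coordinates as mm10) and run from 250 bases before to 50 bases after the RefSeq start. Capitals mark matches to the STAT motif TTCNNNGAA in Socs3 and to the AP-1 motif TGANTCA in Il11, patterns that read alike on either strand.
Socs3, chr11:117969317-117969616, minus strand: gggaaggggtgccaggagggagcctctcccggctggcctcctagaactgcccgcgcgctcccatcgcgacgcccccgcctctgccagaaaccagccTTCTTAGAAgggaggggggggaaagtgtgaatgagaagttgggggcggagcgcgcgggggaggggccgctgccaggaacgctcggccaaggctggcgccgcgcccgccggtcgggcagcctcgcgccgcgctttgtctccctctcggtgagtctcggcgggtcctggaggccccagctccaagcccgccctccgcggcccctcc
Il11, chr7:4778092-4778391, minus strand: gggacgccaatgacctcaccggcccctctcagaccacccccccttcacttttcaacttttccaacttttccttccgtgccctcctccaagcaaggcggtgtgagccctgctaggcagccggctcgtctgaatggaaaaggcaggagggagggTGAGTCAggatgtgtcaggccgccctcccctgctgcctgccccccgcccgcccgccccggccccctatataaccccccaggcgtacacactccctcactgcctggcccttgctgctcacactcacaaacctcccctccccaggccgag

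Of the 10 members 9 had a window in the table, 11 windows in all. Socs3 was the 1 member with a STAT match, 154 bases before its start, while 8.3% of all 32851 windows held one. AP-1 matches stood in windows of Il11 (98 bases before the start), Il6, Lif and Osmr, against 7.81% of all windows. No match overlapped another. Matches describe letters in the window and not binding.

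Libraries held 2019739 to 6303322 counts, and levels are given as CPM, the count of a gene relative to its library's size after TMM scaling in edgeR. The ribosomal RNA precursor Rn45s took 9.35% to 21% of counts in NGO-treated, 22.1% to 25.1% in stripped control and 13.2% to 16% in unstripped libraries. The 12 muscle markers took 2.08% to 4.03% of counts in NGO-treated libraries, 4.04% to 8.93% in stripped control libraries and 0.00817% to 0.134% in unstripped ones. Of the 8 basal keratinocyte markers none was at 0 in any group. In bulk skin, fewer cells of a type and less RNA per cell cannot be told apart.

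Comparing stripped control with unstripped skin, the cytokine genes Il11 and Osm and the inhibitor gene Socs3 rose, and the ligand-binding receptor genes Il6ra and Il11ra1 fell. Stat3 itself did not pass, with 661 ± 191 CPM after stripping and 681 ± 181 CPM without it (SD, n = 3 each). That made 3 higher and 2 lower of the 9 members tested. Over all 13740 genes tested with the edgeR quasi-likelihood test, 13.6% passed an adjusted p under 0.05 (Benjamini-Hochberg), 5.97% higher and 7.64% lower (820 and 1050 genes, or 948 and 931 with RLE scaling). Lif did not pass the filter on low counts. Osm passed it through 3 libraries, stripped control replicates 1 and 2 and NGO replicate 1.

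**Figure D1:**
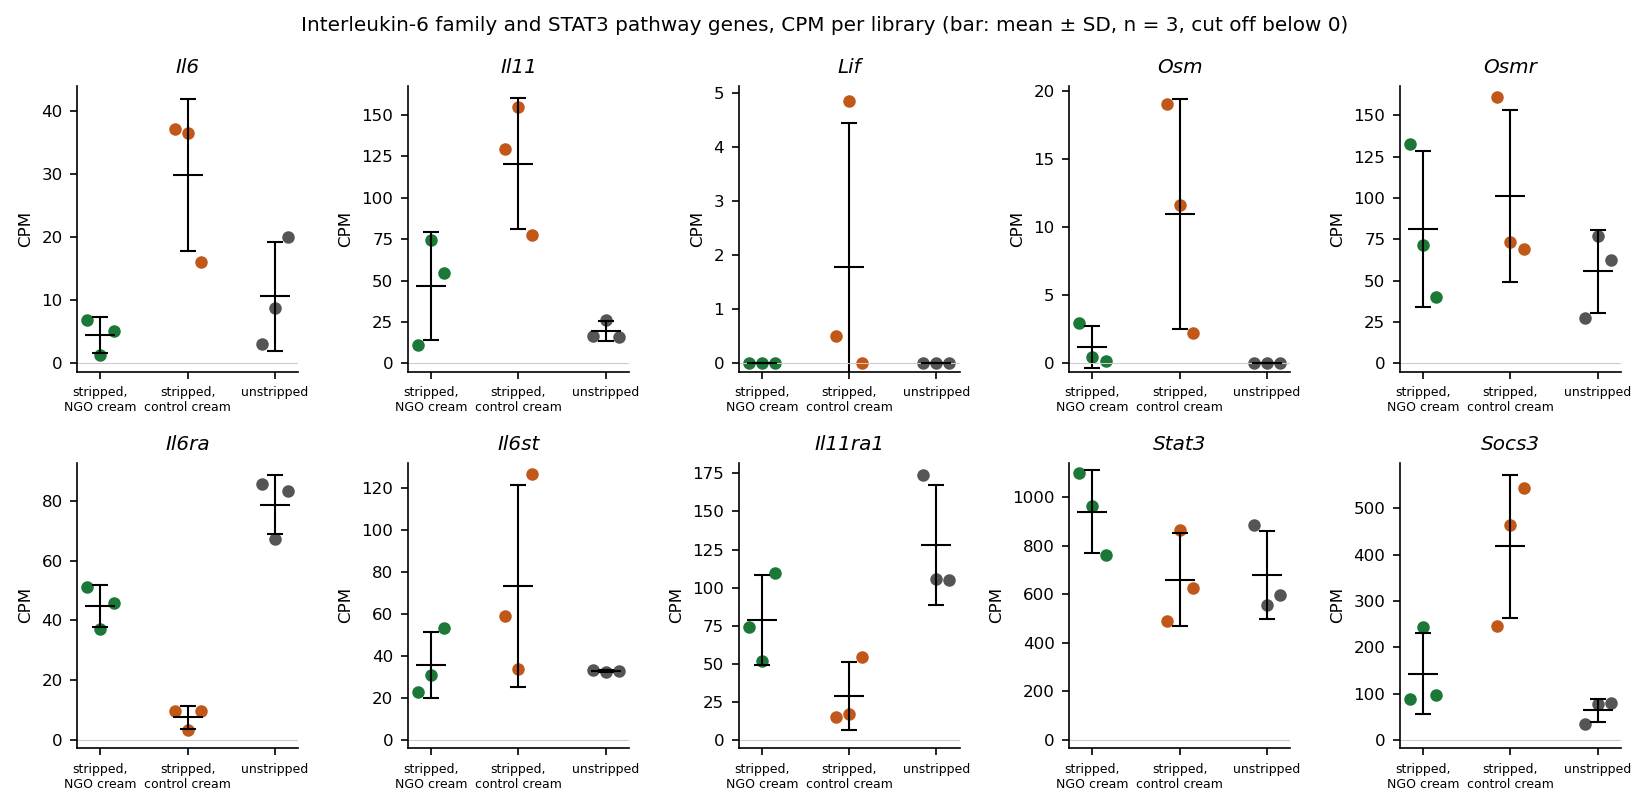
CPM (vertical axes, linear, each panel on its own scale) of the 10 members in NGO-treated stripped skin, stripped control skin and unstripped skin; points are libraries and bars the mean ± SD (n = 3), cut off below 0. Il6ra is lowest in the 3 stripped control libraries, at 9.78 CPM or less, and Socs3 is highest there, at 246 CPM or more.

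Among the ligands, Il11 (mm10 chromosome 7, 4772373 to 4782859, minus strand) codes for interleukin-11, a cytokine of stromal and epithelial cells. It had 130, 155 and 77.7 CPM in stripped control libraries, against 16.4, 26.4 and 16.1 CPM in unstripped libraries. The groups did not overlap, and Il11 rose by 2.62 ± 0.62 on the log2 scale (SE; edgeR adjusted p = 0.0127). The call ended when unstripped replicate 1 (edgeR adjusted p = 0.0616) or unstripped replicate 3 (0.0557) was dropped.

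Osm (chromosome 11, 4236420 to 4241026, plus strand) codes for oncostatin M, made mainly by neutrophils, macrophages and T cells. Its counts were 37, 36 and 7 in stripped control libraries (19, 11.6 and 2.24 CPM), against 0 in each unstripped library. Stripped control skin was thus at least 31.8-fold higher, taking 3 counts over the unstripped group as the floor (0.308 CPM), a bound that covers counting error only. The rise passed narrowly (edgeR adjusted p = 0.0478) and rested on single libraries. Dropping any unstripped or any NGO library, or stripped control replicate 1, ended the call (adjusted p up to 0.164). That is 7 of the 8 reduced fits in which the gene was still tested.

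The summed level of 10 neutrophil markers, of which 5 rose, was 3600 to 10100 CPM in stripped control libraries and 154 to 189 CPM in unstripped libraries. Most of the stripped control sum came from S100a8 (1303 to 3963 CPM) and S100a9 (1917 to 5215 CPM). Csf3r, Cxcr2, Mmp8, Mmp9 and Il1r2 did not pass. Of these markers Clec4d was at 0 in unstripped skin. The 10 macrophage and monocyte markers, of which 2 rose, summed to 245 to 788 CPM in stripped control libraries. In unstripped libraries they summed to 61.6 to 125 CPM, with Ms4a7 at 0. Most of the stripped control sum came from the 2 that rose, Cd68 (54.5 to 187 CPM) and Cd14 (123.5 to 439 CPM). Fitted changes were positive for 7 of the 9 tested and negative for Csf1r and Adgre1, which did not pass. The 8 T cell markers in the files, of 9 listed, summed to 141 to 210 CPM in stripped control libraries and 81.5 to 162 CPM in unstripped libraries. Of the 5 tested, Icos rose (105 to 196 CPM in stripped control and 25.2 to 53.0 CPM in unstripped libraries) and Thy1 and Cd2 fell, and Cd3d, Cd2 and Cd8a were at 0 in stripped control skin.

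Markers of other tissue cells were also higher after stripping. The 8 fibroblast markers, of which 4 rose, summed to 908 to 1370 CPM in stripped control and 362 to 407 CPM in unstripped libraries, with none at 0. Of 7 endothelial markers 6 were tested and 5 rose, with a sum of 348 to 666 CPM in stripped control and 33.7 to 53.6 CPM in unstripped libraries, where Tie1 was at 0. Of 6 adipocyte markers 4 were tested and 3 rose, with a sum of 859 to 1140 CPM in stripped control libraries (Lep at 0) and 49.3 to 70.7 CPM in unstripped libraries (Plin1 at 0). All 12 muscle markers rose. The part of these cell types in the Osm and Il11 results was not tested.

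Il6 (chromosome 5, 30013114 to 30019981, plus strand), the gene of the founding cytokine, had 37, 36.5 and 16 CPM in stripped control libraries, against 3.08, 8.8 and 19.9 CPM in unstripped libraries. The groups overlapped, because unstripped replicate 3 lay above stripped control replicate 3. The fitted log2 fold change was 1.49, with a 95% interval of -0.67 to 3.64, and did not pass (edgeR adjusted p = 0.379). Lif (chromosome 11, 4257557 to 4272514, plus strand) gave 1, 15 and 0 counts in stripped control libraries and 0 counts in each unstripped library, so nearly all of its counts came from 1 library.

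Among the receptors, Il6ra (chromosome 3, 89864059 to 89913196, minus strand) codes for the interleukin-6 binding chain. It had 9.78, 3.23 and 9.59 CPM in stripped control libraries, against 85.5, 67.4 and 83.3 CPM in unstripped libraries. The groups lay far apart, and Il6ra fell by 3.39 on the log2 scale (SE 0.56, edgeR adjusted p = 0.00106), 10.5-fold lower in stripped control skin. The call held whichever of the 9 libraries was dropped and under all 9 other settings.

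Il6ra had the smallest p of the members, and the tested genes with the most similar profile over the 9 libraries were Celsr1 (Pearson r = 0.986 on log2 CPM), Impad1 (0.984) and Cbr1 (0.982), chosen by rank out of 10260 candidates. These libraries fall into 3 groups, so the r values describe mainly differences between groups. Celsr1, a cadherin gene of planar cell polarity, spanned 0.323 to 5.15 CPM in stripped control skin and 111 to 159 CPM in unstripped skin. The 8 basal keratinocyte markers, of which 7 fell, summed to 1860 to 3000 CPM in stripped control libraries and 23100 to 31800 CPM in unstripped libraries. The 5 suprabasal markers in the files, of 6 listed, all fell and summed to 182 to 282 CPM in stripped control and 4840 to 11700 CPM in unstripped libraries, with Ivl at 0 in stripped control skin. Their part in the Il6ra result was not tested.

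Il11ra1 (chromosome 4, 41699989 to 41769474, plus strand, a span that 1 transcript with a start far upstream of the rest makes long) codes for the interleukin-11 binding chain. It had 14.9, 16.8 and 54.3 CPM in stripped control libraries, against 174, 106 and 105 CPM in unstripped libraries. It fell by 2.15 on the log2 scale (SE 0.54, edgeR adjusted p = 0.0177), and the call was lost without unstripped replicate 1 (adjusted p = 0.0811) or stripped control replicate 2 (0.0729). The value carries a doubt of annotation. Il11ra1 and Ccl27a, a keratinocyte chemokine gene on the opposite strand, end against each other and share 8 exonic bases at their 3′ ends, the part that this 3′-tag method reads.

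Ccl27a had 5.14, 6.14 and 24.3 CPM in stripped control libraries, against 1382, 724 and 835 CPM in unstripped libraries. It was named after its values were seen. Where Il11ra1 was highest within a group, Ccl27a was highest too, in each of the 3 groups. Il11ra1 lay above Ccl27a in every stripped control library (14.9, 16.8 and 54.3 CPM) and below it in every other library. The sources used here do not give whether counting used strand, so reads over the 8 shared bases cannot be assigned with confidence. The part of Ccl27a reads in the Il11ra1 values was not tested.

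The near-copy Il11ra2, a second interleukin-11 receptor gene on chromosome 4, had 12.9, 1.94 and 2.56 CPM in stripped control libraries, against 538, 427 and 484 CPM in unstripped libraries. It fell by 6.46 on the log2 scale (edgeR adjusted p = 3.66e-05). In the GENCODE M21 transcripts, 0% of 50-base stretches in the last 300 bases of Il11ra1 also occurred in Il11ra2. In another copy, Gm13305, 31.1% of them occurred. The Il11ra2 transcript was 1299 bases long, against 1768 to 2009 bases for those of Il11ra1. The 0% therefore holds for the annotated sequences only, as a 3′ end missing from the Il11ra2 transcript could not be compared. In the other direction, 18.7% of stretches in the last 300 bases of Il11ra2 occurred in Il11ra1, and 59.3% over its whole transcript, so the pair's reads are not fully separable. All of Il11ra2 (100%) occurred in Gm13305, so counts of those 2 copies cannot be separated with confidence.

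The other receptor chains did not pass. Osmr (chromosome 15, 6813577 to 6874969, minus strand), the oncostatin M chain, had 161, 73.4 and 69.4 CPM in stripped control libraries, against 27.7, 76.8 and 62.5 CPM in unstripped libraries. The groups overlapped, and its fitted log2 fold change was 0.86, with a 95% interval of -0.30 to 2.02 (edgeR adjusted p = 0.342). Il6st (chromosome 13, 112464070 to 112510086, plus strand) had 59.2, 33.6 and 127 CPM in stripped control libraries, against 33.2, 32.5 and 32.8 CPM in unstripped libraries. The 3 unstripped values were nearly equal while the stripped control values spread over a wide range, and the log2 fold change of 1.16 (95% interval -0.04 to 2.35) did not pass (edgeR adjusted p = 0.194).

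Inside the cell, Stat3 (chromosome 11, 100885098 to 100939540, minus strand) had 489, 867 and 627 CPM in stripped control libraries, against 888, 555 and 599.6 CPM in unstripped libraries. The ranges overlapped almost fully. Its log2 fold change was -0.04, with a 95% interval of -0.71 to 0.62 (edgeR adjusted p = 0.958), and its sign changed with the scaling method (0.08 with RLE, 0.07 with upper-quartile scaling). Stat3 and Stat5a lie on opposite strands and share 72 exonic bases at the 3′ end of Stat3.

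Socs3 (chromosome 11, 117966079 to 117970047, minus strand) is the feedback inhibitor gene among the members. It had 246, 464 and 544 CPM in stripped control libraries, against 34.9, 78.3 and 79.2 CPM in unstripped libraries. Every stripped control library lay above every unstripped one. It rose by 2.70 ± 0.49 on the log2 scale (edgeR adjusted p = 0.00226), 6.52-fold, and that call held whichever of the 9 libraries was dropped and under all 9 other settings. Socs3 rose beside higher summed levels of the neutrophil, macrophage, fibroblast, endothelial, adipocyte and muscle markers given above. Apart from muscle, only some markers of each list passed. The part of these cell types in the Socs3 result was not tested.

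**Figure D2:**
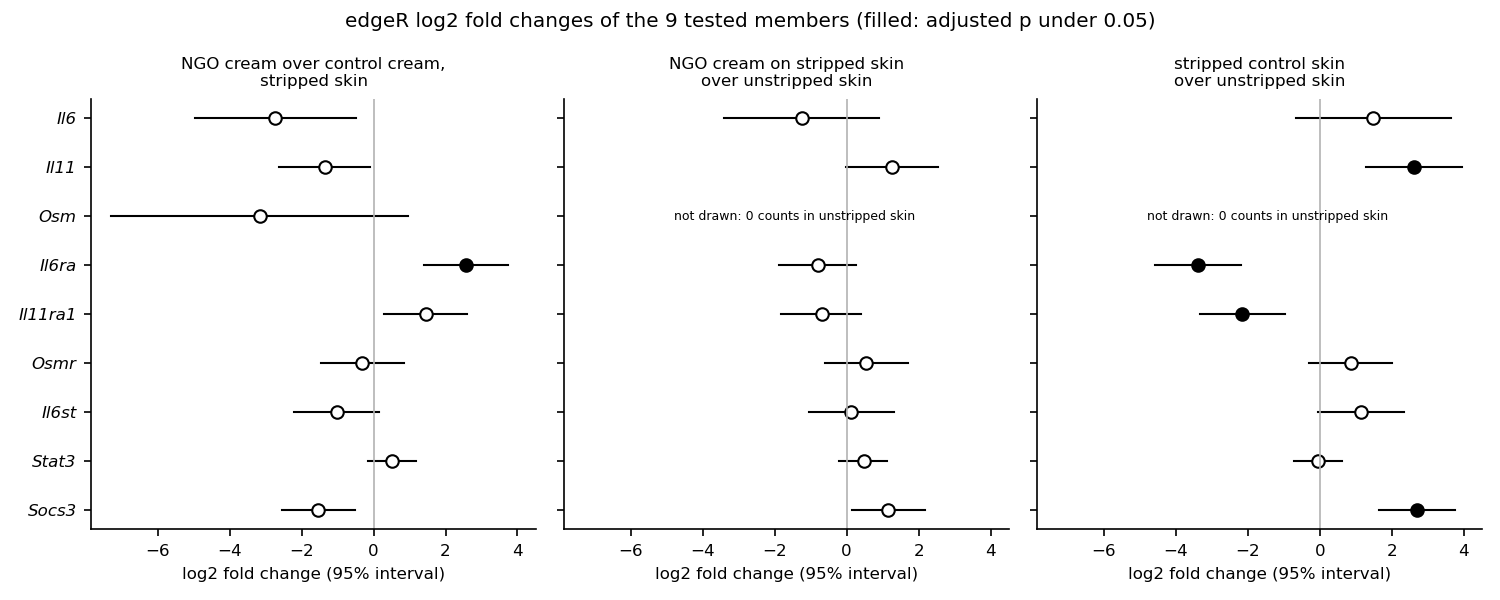
Log2 fold change (horizontal axes) with its 95% interval for the 9 tested members in the 3 comparisons; filled points passed an adjusted p under 0.05 (edgeR). After stripping Il11 (2.62) and Socs3 (2.70) lie right of 0 and Il6ra (-3.39) and Il11ra1 (-2.15) left of it, while with NGO cream over control cream Il6ra (2.58) is the 1 filled point. Osm is not drawn against unstripped skin, where it had 0 counts.

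With NGO cream against control cream on stripped skin, Il6ra rose, and the other 8 tested members did not pass. The fitted change was negative for 6 of the 9, Il6, Il11, Osm, Osmr, Il6st and Socs3, and the 95% intervals of Osm, Osmr and Il6st included 0. Il6ra was thus 1 higher and 0 lower of 9 members, where 5.05% of all genes tested passed, 3.87% higher and 1.18% lower (532 and 162 genes, or 428 and 215 with RLE scaling). This comparison and the first share the stripped control libraries, so an extreme value in that group enters both with opposite sign.

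Il6ra had 51.4, 37.3 and 46 CPM in NGO-treated libraries, against 9.78, 3.23 and 9.59 CPM in stripped control libraries. The groups did not overlap, and it rose by 2.58 ± 0.54 on the log2 scale (edgeR adjusted p = 0.0186), 5.98-fold. The call was lost without NGO replicate 1 (adjusted p = 0.0678) or NGO replicate 3 (0.0530), in a fit of the 2 groups alone (0.14) and with limma-voom (0.138). The 8 basal keratinocyte markers, of which 6 rose, summed to 12100 to 18800 CPM in NGO-treated libraries, against 1860 to 3000 CPM in stripped control libraries. The 5 suprabasal markers, of which 2 rose, summed to 615 to 987 CPM in NGO-treated and 182 to 282 CPM in stripped control libraries. Their part in the Il6ra result was not tested.

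Socs3 had 87.7, 245 and 97.6 CPM in NGO-treated libraries, against 246, 464 and 544 CPM in stripped control libraries. The groups were separated by a narrow gap between NGO replicate 2 and stripped control replicate 1. The log2 fold change of -1.54 ± 0.47 did not pass (edgeR adjusted p = 0.0755; 95% interval -2.56 to -0.53). It passed without stripped control replicate 1 (adjusted p = 0.0315) or NGO replicate 2 (0.044), with DESeq2 (0.0125), with limma-voom (0.0172) and without the filter on low counts (0.0170).

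Of the ligands, Il6 had 6.91, 1.38 and 5.13 CPM in NGO-treated libraries, against 37, 36.5 and 16 CPM in stripped control libraries. All NGO-treated values lay below all stripped control values, yet the log2 fold change of -2.73 ± 1.05 did not pass (edgeR adjusted p = 0.152), except with DESeq2 (0.0202). Il11 had 11.1, 74.6 and 54.6 CPM in NGO-treated libraries, against 130, 155 and 77.7 CPM in stripped control libraries. These groups also did not overlap, with NGO replicate 2 just below stripped control replicate 3, and the log2 fold change was -1.36 ± 0.59 (edgeR adjusted p = 0.201).

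Osm had 10, 2 and 1 counts in NGO-treated libraries (3, 0.46 and 0.166 CPM), against 37, 36 and 7 counts in stripped control libraries. NGO replicate 1 lay above stripped control replicate 3, and the difference did not pass (log2 fold change -3.17, 95% interval -7.29 to 0.96, edgeR adjusted p = 0.369). Lif had 0 counts in each NGO-treated library, against 1, 15 and 0 counts in stripped control libraries. The 10 neutrophil markers, of which 4 fell, summed to 534 to 1670 CPM in NGO-treated libraries and 3600 to 10100 CPM in stripped control libraries, with no marker at 0. S100a8 and S100a9 made up most of the sum in both groups. Macrophage and monocyte markers summed to 129 to 178 CPM in NGO-treated and 245 to 788 CPM in stripped control libraries, and Ms4a7 was at 0 in NGO-treated skin. Of the 9 tested 0 passed with edgeR, 3 were lower at an unadjusted p under 0.05, and DESeq2 and limma-voom each called 2. Muscle markers summed to 18800 to 42100 CPM in NGO-treated and 42000 to 116000 CPM in stripped control libraries. Of the 12, 0 passed with edgeR, 7 were lower at an unadjusted p under 0.05, and DESeq2 and limma-voom each called 2. Over all genes, 2919 of 13740 were under that unadjusted p in this comparison, in either direction. Fibroblast markers summed to 654 to 1480 CPM in NGO-treated and 908 to 1370 CPM in stripped control libraries, and endothelial markers to 215 to 345 CPM in NGO-treated and 348 to 666 CPM in stripped control libraries. Adipocyte markers summed to 452 to 757 CPM in NGO-treated and 859 to 1140 CPM in stripped control libraries, with 1 of 4 lower. Of the 5 T cell markers tested Thy1 rose. The part of these cell types in the cytokine and Socs3 values was not tested.

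Il11ra1 had 74.5, 51.5 and 110 CPM in NGO-treated libraries, against 14.9, 16.8 and 54.3 CPM in stripped control libraries. Stripped control replicate 3 lay above NGO replicate 2, and the log2 fold change of 1.45 ± 0.53 did not pass (edgeR adjusted p = 0.136) except without that stripped control library (0.0238). The neighbouring Ccl27a rose, with 128, 60.8 and 134 CPM in NGO-treated libraries, against 5.14, 6.14 and 24.3 CPM in stripped control libraries (log2 fold change 3.15, edgeR adjusted p = 0.00782).

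Stat3, Osmr and Il6st overlapped between these groups and did not pass. Stat3 had 1100, 963.5 and 762 CPM in NGO-treated libraries, against 489, 867 and 627 CPM in stripped control libraries, a log2 fold change of 0.51 with a 95% interval of -0.16 to 1.18 (edgeR adjusted p = 0.372). Osmr had 133, 71.6 and 40.05 CPM in NGO-treated libraries, against 161, 73.4 and 69.4 CPM in stripped control libraries. In both groups replicate 1 was the highest, and the log2 fold change was -0.31 (95% interval -1.47 to 0.84, edgeR adjusted p = 0.8). Il6st had 22.8, 31.1 and 53.5 CPM in NGO-treated libraries, against 59.2, 33.6 and 127 CPM in stripped control libraries (-1.03, 95% interval -2.22 to 0.16, edgeR adjusted p = 0.305).

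NGO-treated stripped skin was also set against unstripped skin. Here 0 of the 9 tested members passed with edgeR, where 2.51% of all genes tested did, 2.06% of all being higher and 0.451% lower. Osm (edgeR unadjusted p = 0.0418) and Socs3 (0.0277), both higher in NGO-treated skin, were the 2 members under 0.05 before adjustment. Of all 13740 genes 1609 were, in either direction. DESeq2 called 0 members, and limma-voom called 1 member, Stat3, higher (adjusted p = 0.032). Osm, at 13 counts over the NGO-treated libraries and 0 in the unstripped ones, was at least 3.08-fold higher by the same floor.

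Socs3 had 87.7, 245 and 97.6 CPM in NGO-treated libraries, against 34.9, 78.3 and 79.2 CPM in unstripped libraries, with no overlap, yet the log2 difference of 1.16 ± 0.47 did not pass (edgeR adjusted p = 0.327). Il6ra was below unstripped skin in all 3 NGO-treated libraries (51.4 CPM or less, against 67.4 CPM or more; log2 fold change -0.81, 95% interval -1.89 to 0.27, edgeR adjusted p = 0.651). Il11 in NGO replicate 1 (11.1 CPM) lay below all unstripped libraries and in the other NGO replicates above them (1.25, 95% interval -0.03 to 2.53, adjusted p = 0.45). The remaining tested members, Il6, Osmr, Il6st, Il11ra1 and Stat3, overlapped between these groups, with log2 fold changes from -1.24 (Il6) to 0.55 (Osmr).

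A ratio of 2 genes' counts within a library does not depend on how libraries are scaled, and 2 such ratios were taken after the values had been seen. Socs3 counts per Stat3 count, the inhibitor over the transcription factor, were 0.0797, 0.254 and 0.128 in NGO-treated libraries. They were 0.504, 0.535 and 0.868 in stripped control libraries, and 0.0393, 0.141 and 0.132 in unstripped libraries. Every stripped control library lay above every other library. Il6ra counts per Il6st count, the specific over the shared chain, were 2.25, 1.2 and 0.861 in NGO-treated libraries, 0.165, 0.0962 and 0.0756 in stripped control libraries, and 2.58, 2.07 and 2.54 in unstripped libraries. Here every stripped control library lay below every other one. For both ratios the exact two-sided permutation p of stripped control skin against either other group was 0.1, the smallest that 3 libraries against 3 allow. Socs3 and Il6ra had already been seen to separate stripped control skin from both other groups, so this p adds no support. Between NGO-treated and unstripped skin the groups overlapped for both ratios (exact permutation p = 0.6 for Socs3 per Stat3 and 0.2 for Il6ra per Il6st).

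**Figure D3:**
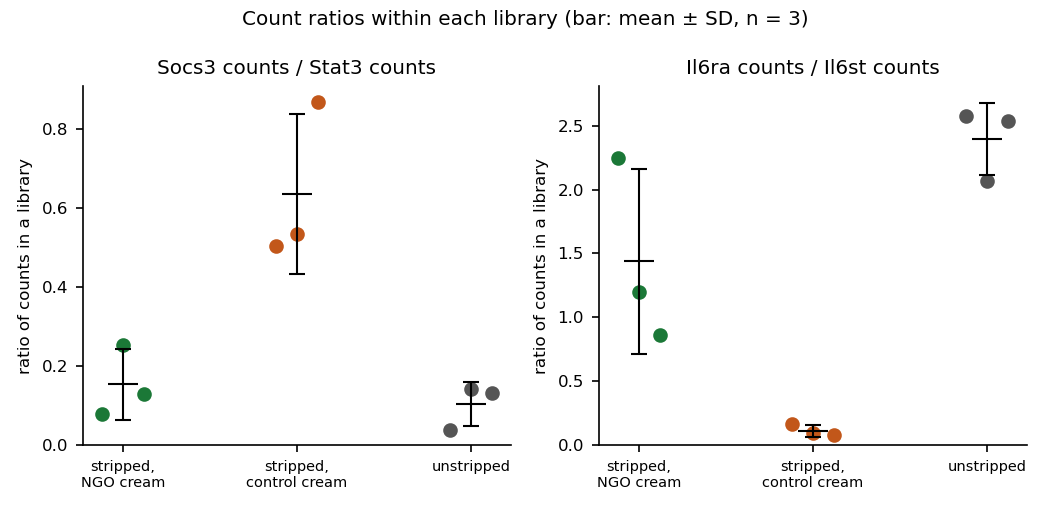
Ratio of counts in each library (vertical axes, linear, from 0) for Socs3 over Stat3 and Il6ra over Il6st; points are libraries and bars the mean ± SD (n = 3). Stripped control skin has the highest Socs3 ratios (0.504 to 0.868) and the lowest Il6ra ratios (0.0756 to 0.165).

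The rest of the pathway was read from lists written with earlier results of these data known. Among the other ligand genes of the family, Clcf1 and Cntf did not pass edgeR in any comparison. Clcf1 had an edgeR unadjusted p = 0.00675 for NGO-treated over unstripped skin (adjusted p = 0.154). Clcf1, a ligand for the ciliary neurotrophic factor receptor, had 31.5, 91.8 and 20.85 CPM in NGO-treated libraries, 11.8, 27.8 and 16.6 CPM in stripped control libraries and 0.684, 7.62 and 9.09 CPM in unstripped libraries. Of 5 other receptor genes 4 were tested, and Il11ra2 alone passed, lower than in unstripped skin in both stripped groups. It had 20.1, 17.0 and 21.2 CPM in NGO-treated libraries, against 538, 427 and 484 CPM in unstripped libraries (log2 fold change -4.63, edgeR adjusted p = 0.00064). Its change with NGO cream over control cream did not pass (log2 fold change 1.83, edgeR adjusted p = 0.0724). Lifr, the receptor chain for Lif, had 101, 80.5 and 33.6 CPM in NGO-treated libraries, 185, 68.2 and 43.1 CPM in stripped control libraries and 97.5, 87.1 and 92.1 CPM in unstripped libraries, with overlap throughout.

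Among the JAK kinase and other STAT genes, Stat6 fell after stripping. Stat6, the factor of interleukin-4 signalling, had 27.3, 50.1 and 30.7 CPM in stripped control libraries, against 169, 88.8 and 75.35 CPM in unstripped libraries. Its call (edgeR adjusted p = 0.0315) ended in 4 of 9 fits with a library dropped (adjusted p up to 0.175).

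The kinase gene Jak1, which serves gp130, had 370, 218 and 193 CPM in stripped control libraries, against 343, 316 and 323 CPM in unstripped libraries, and did not pass (log2 fold change -0.33, edgeR adjusted p = 0.555). Of 15 inhibitor genes (SOCS and PIAS families and phosphatases), all tested with edgeR, Socs2 rose after stripping, 1 of 15 beside 5.97% of all genes, and 0 fell. Before adjustment 1 was higher and 4 were lower at p under 0.05, as 3838 of all 13740 genes were in either direction. DESeq2 called 2 of the 15 lower and limma-voom 0. Socs2, which restrains growth hormone signalling, had 75.6, 122 and 37.4 CPM in stripped control libraries, against 8.55, 28.7 and 14.1 CPM in unstripped libraries (log2 fold change 2.19 ± 0.60, edgeR adjusted p = 0.0259), and was lost without unstripped replicate 1 or 3 or stripped control replicate 2 (up to 0.112). With NGO cream over control cream 0 of the 15 passed edgeR (2 at an unadjusted p under 0.05, DESeq2 1, limma-voom 0), and likewise over unstripped skin (1, 1 and 0). Over all genes, 2919 and 1609 of 13740 were under that unadjusted p in these comparisons, in either direction. Socs1, the related inhibitor of interferon signalling, stayed at 4.6 CPM or less in every library.

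Described STAT3 target genes numbered 26, of which 24 were tested. After stripping 8 rose and 0 fell, beside the 5.97% and 7.64% of all genes, and their median log2 fold change was 1.01 beside -0.20 over all genes. The list was written with earlier results of these data known. Its counts and medians, here and in the other comparisons, therefore describe the chosen genes and are no test. Many of these genes also answer to NF-kB or C/EBP factors, and several are abundant in neutrophils, so the count does not single out STAT3. Saa3, an acute-phase gene, had 720, 371 and 256 CPM in stripped control libraries and 0 counts in unstripped libraries, at least 1330-fold higher. Hp, which codes for haptoglobin, had 442, 374 and 180 CPM in stripped control libraries, against 5.82, 8.5 and 4.98 CPM in unstripped libraries (log2 fold change 5.68 ± 0.45, edgeR adjusted p = 1.08e-05).

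Lcn2, the iron-siderophore binding lipocalin gene, had 31.4, 130 and 119 CPM in stripped control libraries, against 0.684, 0.293 and 0.88 CPM in unstripped libraries. Lrg1, a secreted glycoprotein gene of blood vessel growth, had 484, 278 and 204 CPM in stripped control libraries, against 11.3, 3.52 and 0.293 CPM in unstripped libraries. Cebpd, a transcription factor gene of the acute-phase response, had 135, 96.7 and 147 CPM in stripped control libraries, against 14.4, 11.1 and 22.3 CPM in unstripped libraries. In each of these genes the groups lay clearly apart. Timp1, a protease inhibitor gene, had 94.2, 152 and 131 CPM in stripped control libraries, against 1.03, 0 and 0 CPM in unstripped libraries. The other genes that rose were Il4ra and Mcl1, named after their values were seen. Mcl1 was lost without any 1 unstripped replicate or without stripped control replicate 2 or 3 (edgeR adjusted p up to 0.0748).

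**Figure D4:**
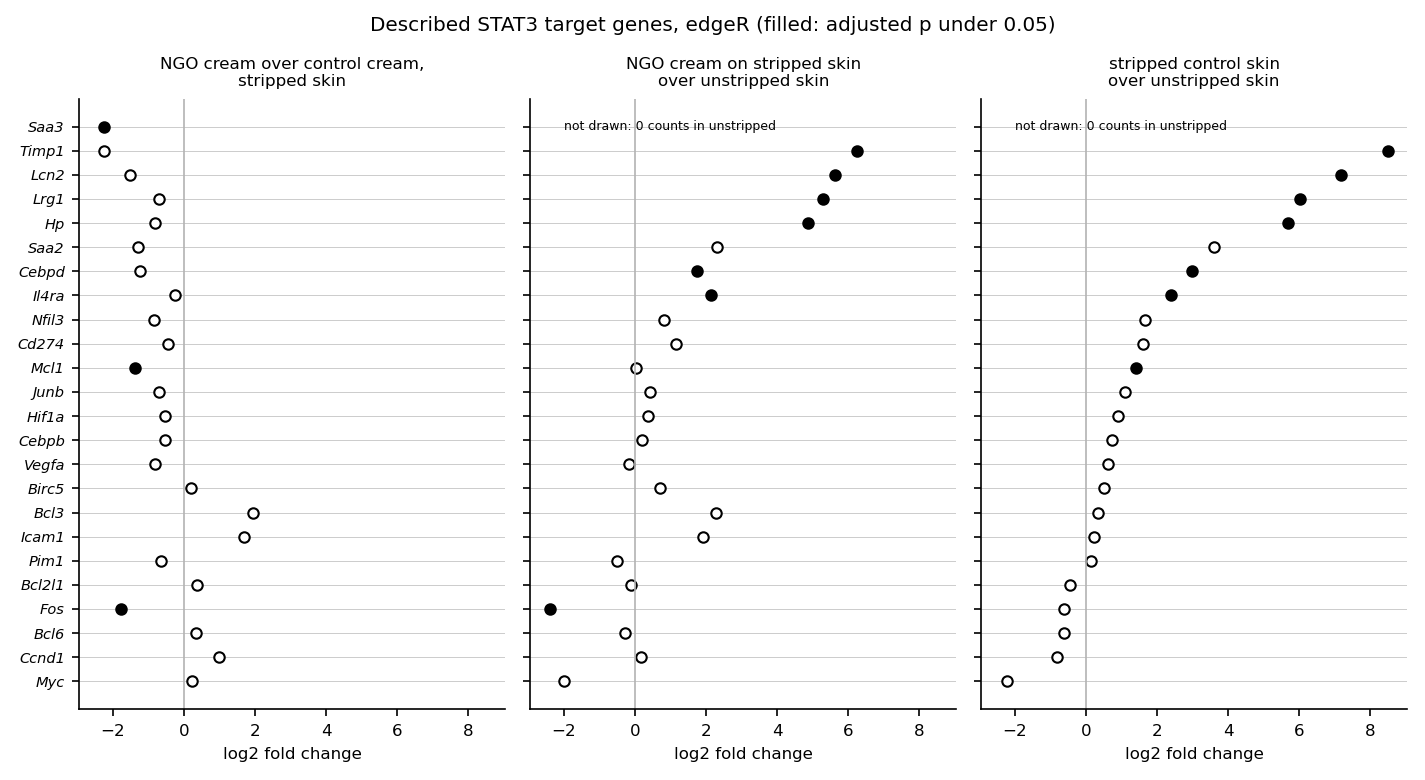
Log2 fold change (horizontal axes) of the 24 tested STAT3 target genes, ordered by the change after stripping, in the 3 comparisons; filled points passed an adjusted p under 0.05 (edgeR). Timp1, Lcn2, Lrg1 and Hp lie far right of 0 against unstripped skin in both stripped groups, and Saa3, Mcl1 and Fos are the filled points for NGO cream over control cream. Saa3 is not drawn against unstripped skin, where it had 0 counts.

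With NGO cream against control cream, 0 of these 24 genes rose and 3 fell, beside 3.87% and 1.18% of all genes, and the median was -0.67 beside 0.07 over all genes. Saa3 had 97.6, 93.9 and 88.9 CPM in NGO-treated libraries, against 720, 371 and 256 CPM in stripped control libraries (log2 fold change -2.26 ± 0.41, edgeR adjusted p = 0.012). Without NGO replicate 1, or without NGO replicate 2, it did not pass (up to 0.0627). Mcl1, a survival gene, had 87.1, 134 and 96.5 CPM in NGO-treated libraries, against 156, 312 and 365 CPM in stripped control libraries (edgeR adjusted p = 0.0429). Fos, an immediate early gene, had 17.7, 23 and 18.2 CPM in NGO-treated libraries, against 57.6, 70.8 and 74.8 CPM in stripped control libraries (edgeR adjusted p = 0.0403). Fos, like Mcl1, was named after its values were seen. With a library dropped, Mcl1 failed in 8 of 9 fits (up to 0.151) and Fos in 7 (up to 0.129).

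Against unstripped skin, 7 of the 24 genes were higher in NGO-treated skin and 1 was lower, beside 2.06% and 0.451% of all genes. Those higher were Saa3, Hp, Lcn2, Lrg1, Timp1, Cebpd and Il4ra. Hp had 182, 205 and 183 CPM in NGO-treated libraries, against 5.82, 8.5 and 4.98 CPM in unstripped libraries (log2 fold change 4.87 ± 0.43, edgeR adjusted p = 9.41e-05), and Saa3 was at least 301-fold higher. Lcn2 had 25.5, 17.5 and 54.3 CPM in NGO-treated libraries, against 0.88 CPM or less in each unstripped library. Cebpd, at 45.4, 52.9 and 60.9 CPM in NGO-treated libraries, passed narrowly (edgeR adjusted p = 0.0485) and failed in 8 of 9 fits with a library dropped (up to 0.31). Fos was lower (log2 fold change -2.40 ± 0.46, edgeR adjusted p = 0.0112), and lost without unstripped replicate 1 or NGO replicate 1 or 3 (up to 0.0799).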

How the data were processed

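Libraries were 3′-tag RNA libraries (Lexogen QuantSeq, from 500 ng of total RNA, per the labels' protocols). Each library had its own table, in which the authors deposited raw read counts against gene symbols. The submitters' processing notes name mm10, Bowtie2 and bedtools but no versions. The sources used here do not give how strand or multiply mapped reads were handled. Each table held 23282 entries (44 of them repeats of 35 symbols, kept apart).

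Counts were analysed in R 4.3.3 with edgeR 4.0.16 (TMM, default low-count filter, robust quasi-likelihood test, group as the factor, 9 libraries in 1 fit), which tested 13740 genes. Benjamini-Hochberg adjustment ran over all of them, with a threshold of 0.05. Intervals are 95% and SE values come from the fitted test. The procedure was tested on simulated data. Coordinates come from GENCODE M21. Deviations of same-numbered libraries correlated at -0.057 to 0.086, so the numbers were not taken to pair libraries.

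The members and lists were chosen with earlier results of these data known. The genes named are the 10 members and, from each pathway list, up to 6 genes that passed in any comparison, by smallest p. Outside that rule, Ccl27a, Gm13305, Stat5a, Il4ra, Fos, Mcl1, Clcf1, Cntf, Lifr, Jak1 and Socs1 were named, and both count ratios chosen, after values were seen. Some genes of these lists are not reported here. Alternatives were RLE and upper-quartile scaling, 2 other filters (none, or 20 counts in 3 libraries), DESeq2 1.42.0, limma-voom (limma 3.58.1), the replicate block, fits of 2 groups, library sizes without muscle markers and Rn45s, and leaving out each library.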

Additional observations from a re-analysis of the deposited data

How the results depend on the processing

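Of the 5 members called after stripping, the fits that left out 1 library called 2 to 5, and the 9 other settings stayed within 1.5 times of 5. For NGO cream over control cream the count of 1 became 2 without the low-count filter, 2 with the replicate block, 0 in a fit of the 2 groups alone, 3 with DESeq2 and 0 to 2 with 1 library left out; with limma-voom it was 1, but of Socs3, lower, and not Il6ra. For NGO-treated over unstripped skin the count of 0 became 1 with limma-voom and stayed 0 with any 1 library left out. With the replicate block, whose numbers did not pair the libraries, 4, 2 and 0 members and 1650, 559 and 313 genes were called in the 3 comparisons, and it moved Socs3 to an adjusted p = 0.0333 for NGO cream over control cream and Osm to 0.0863 after stripping.

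Over all genes, 1870 were called after stripping, 2976 with DESeq2 and 1159 to 2124 with 1 library left out. For NGO cream over control cream 694 were called, 118 in a fit of the 2 groups alone, 1721 with DESeq2, 414 with limma-voom and 206 to 929 with 1 library left out. For NGO-treated over unstripped skin 345 were called, 602 in a fit of the 2 groups alone, 756 with DESeq2, 1352 with limma-voom and 214 to 495 with 1 library left out. The cause of these shifts was not tested. After stripping more genes were called lower than higher (1050 and 820), but more were higher with limma-voom (1405 higher, 1184 lower), when unstripped replicate 1 was dropped (619 and 568) and with RLE scaling (948 and 931), and with limma-voom more were lower than higher for NGO cream over control cream (219 and 195, against 162 and 532).

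Signs changed in values that did not pass. Stat3 after stripping was 0.08 with RLE scaling and with DESeq2, 0.07 with upper-quartile scaling, 0.02 without the filter, 0.18 with limma-voom and -0.26 to 0.20 with 1 library left out. With 1 library left out, Osmr ran from -0.85 to 0.12 for NGO cream over control cream and from -0.01 to 0.84 for NGO-treated over unstripped skin, and Il6st from -0.30 to 0.36 for NGO-treated over unstripped skin. The median of all genes after stripping was -0.20 on the log2 scale, -0.07 with RLE and -0.62 with limma-voom, and changes are relative to it. Depth limits Lif and Osm, whose counts were few.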
